A study of Rattus norvegicus with 8 samples.

Results

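The miR-31 hairpin gives rise to 2 mature miRNAs, rno-miR-31 and rno-miR-31*, which were the 2 rows of 620 in the count table whose names belong to this hairpin. They were taken by name, but the hairpin was selected on the AA-treated against control values of these same counts, so that its difference between the groups is given below as a description and without a test. Kidneys of 4 rats treated with AA (aristolochic acid, a plant toxin that damages the kidney and causes tumours) were compared with those of 4 control rats, with 1 small RNA library per rat. All 8 were male Big Blue transgenic rats, a mutation reporter line on the Fisher 344 strain. From an age of 6 weeks, the treated animals were gavaged 5 times a week with the sodium salt of AA (10.0 mg/kg, dose volume 4 ml/kg) and the controls with 0.9% sodium chloride, and all were killed 1 day after the last dose. The treatment protocol gives 12 weeks for all rats, whereas the single sample descriptions give 12, 13, 14 and 15 weeks for the rats numbered 1 to 4 of each group, with an age of 18 weeks for all of them. The libraries held 13412373 to 15616670 counts on miRNAs, and "normalized counts" are counts divided by median-of-ratios size factors, which were 0.818 to 1.28. A piece of whole kidney was used, in which more cells of one kind and more RNA per cell cannot be told apart.

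A miRNA hairpin is cut by Dicer into a short duplex, of which one strand is usually kept in an Argonaute protein and the other, marked with a star in the older names, is mostly degraded. The kept strand finds its targets mainly through its seed, the bases 2 to 8. miR-31 is expressed in many epithelia and is known from cancer research for targets in cell adhesion and movement, such as RhoA and integrin alpha 5. In mammals its gene lies beside Mtap and the tumour suppressor gene Cdkn2a, with which it is often lost in tumours.

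The sequences of the hairpin show what each count stands for and how different the seeds of its strands are. They were read by name from the RefSeq miRNA table on GRCr8, where miR-31 and miR-31* are now called rno-miR-31a-5p and rno-miR-31a-3p, and the count table itself holds no sequences. Capitals mark the seed.
miR-31: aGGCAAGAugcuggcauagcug
miR-31*: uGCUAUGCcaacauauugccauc
miR-31b: cUAUGCCAgcaucuugccu

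The hairpin that holds both strands has 106 bases and lies on the minus strand of chromosome 5 in that table (GRCr8, chr5:108714849-108714954), with both mature miRNAs in capitals here.
Mir31 hairpin: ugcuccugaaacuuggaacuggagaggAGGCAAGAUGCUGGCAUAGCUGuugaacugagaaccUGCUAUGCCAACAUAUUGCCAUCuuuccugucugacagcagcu

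miR-31 has 22 bases and miR-31* has 23, with 14 bases of loop between them, and the fold of lowest computed energy pairs 17 bases of one with the other. No other of the 693 mature names in that table carries the seed of miR-31 or that of miR-31*. Outside this locus, the closest mature sequence matched miR-31 at 13 of 22 positions and miR-31* at 14 of 23, which leaves no near-identical paralog in that table. miR-31b is another miRNA, annotated on the opposite strand of the same locus, and its 19 bases are the exact reverse complement of a stretch of miR-31 (19 of 19 bases). It has no row among those analysed here.

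miR-31, the arm that carries the known targets, was a miRNA of middle abundance in the kidney. It had 361, 559, 773 and 836 normalized counts in control rats 1 to 4, where it ranked between 136 and 164 of the 620 miRNAs. In AA-treated rats 1 to 4 it had 440, 2730, 556 and 1017 normalized counts. The groups overlapped widely, since AA-treated rats 1 and 3 lay below control rats 3 and 4, and AA-treated rats 2 and 4 lay above every control rat. The means were 632 ± 216 among controls and 1186 ± 1059 with AA (SD, n = 4 each), a ratio of 1.88 and a log2 fold change of 0.91 (standard error 0.48).

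That ratio rested mainly on AA-treated rat 2, which had 2.68 times the miR-31 of the next highest AA-treated rat, and without it the mean of the other 3 AA-treated rats was 671 ± 305 (SD), 1.06 times the control mean, and its log2 fold change was 0.09 (SE 0.34). The medians of the groups, 666 and 787 normalized counts, differed by a ratio of 1.18.

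miR-31*, the arm that is mostly degraded, was less abundant and separated the groups in a different way. It had 23.9, 76.9, 69.2 and 47.7 normalized counts in control rats 1 to 4, from 23, 70, 73 and 39 reads. In AA-treated rats 1 to 4 it had 81.9, 455, 120 and 131 normalized counts, from 73, 583, 122 and 161 reads. The lowest value with AA lay above the highest control value, although AA-treated rat 1 exceeded control rat 2 by a factor of 1.07 only. These values were in the same order with TMM factors and with total counts. The means were 54.4 ± 23.8 and 197 ± 173 (SD, n = 4 each), a ratio of 3.62 and a log2 fold change of 1.86 (standard error 0.51).

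AA-treated rat 2 was again the highest, at 3.47 times the next AA-treated rat. Without it the mean was 111 ± 25.9 (SD, n = 3), 2.04 times the control mean, and its log2 fold change was 1.03 (SE 0.38). The 3 remaining AA-treated rats stayed above the 4 control rats.

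**Figure D1:**
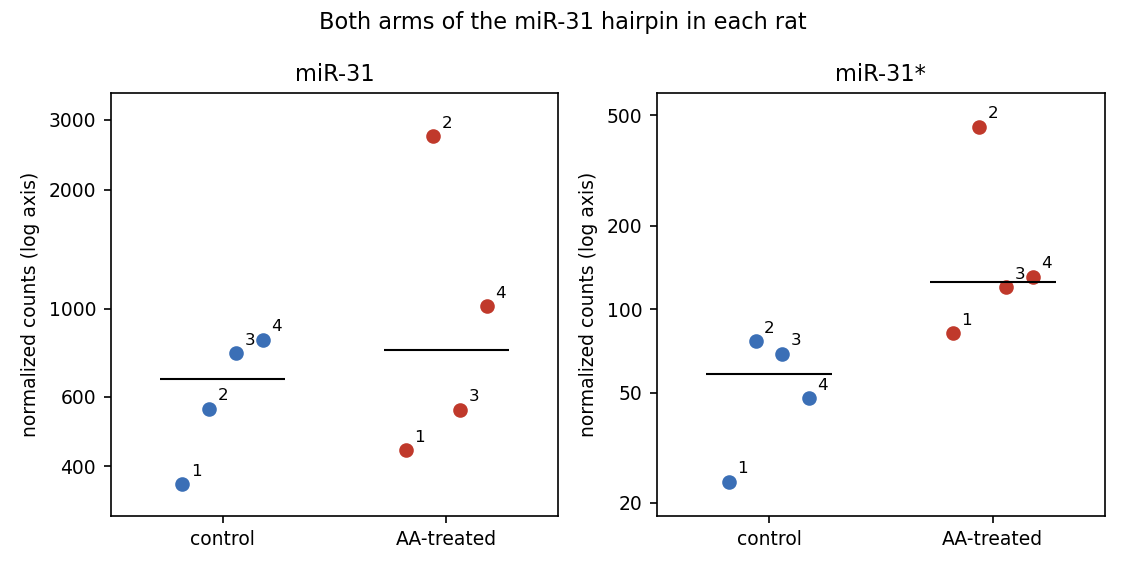
Normalized counts of miR-31 (left) and miR-31* (right) on log axes, with 1 point per rat labelled by its number and a line at the median of each group of 4. AA-treated rat 2 is highest in both panels, at 2730 and 455, and only in the right panel do all AA-treated rats lie above all control rats.

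The place of the arms in the whole table is a description too. Over all 620 miRNAs, 9.68% had every AA-treated rat above every control rat, as miR-31* did. Among the 370 miRNAs with a mean of at least 10 counts, the log2 fold change of miR-31* ranked 22 from the top and that of miR-31 ranked 40, with a median of 0.02.

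**Figure D2:**
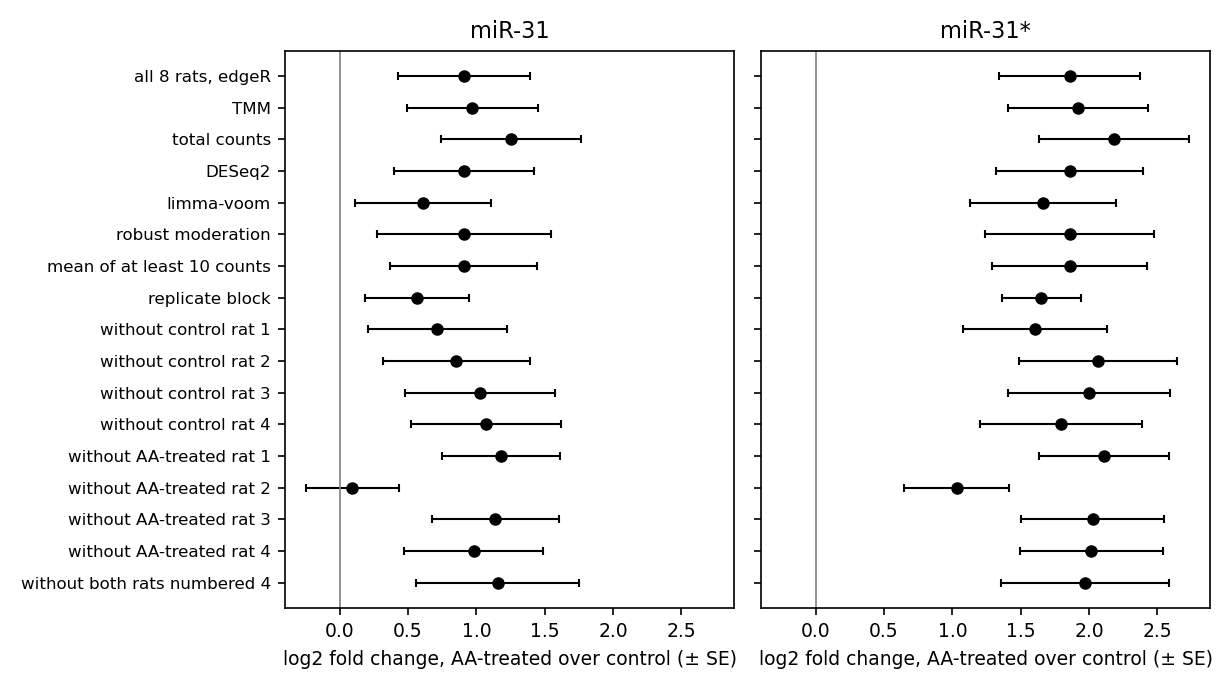
Log2 fold change of AA-treated over control rats with its standard error for miR-31 (left) and miR-31* (right), in 17 fits named at the left. Leaving out AA-treated rat 2 moves miR-31 to 0.09 and miR-31* to 1.03.

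The balance between the arms was a measure that needed no normalization, because both arms were counted in the same library. miR-31 was the more abundant arm in 8 of 8 rats, by 4.62- to 17.5-fold, with a mean log2 ratio of 3.07 ± 0.70 (SD, n = 8; p = 0.00781 in an exact two-sided sign-flip permutation test, which can go no lower with 8 rats). Which arm is the more abundant was not used to choose the hairpin. The names of the rows already follow this order, as the star marks the rarer arm. The outcome was therefore expected before the test, and its p adds no independent evidence.

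The share of the hairpin's reads that fell on miR-31* was 6.22% in control rat 1 (95% exact binomial interval 3.98% to 9.18%), 12.1% in control rat 2 (9.55% to 15.0%), 8.22% in control rat 3 (6.50% to 10.2%) and 5.39% in control rat 4 (3.86% to 7.30%). In the AA-treated rats it was 15.7% in rat 1 (12.5% to 19.3%), 14.3% in rat 2 (13.2% to 15.4%), 17.8% in rat 3 (15.0% to 20.9%) and 11.4% in rat 4 (9.80% to 13.2%). The groups overlapped in 1 pair of rats, since AA-treated rat 4 was below control rat 2, and these 2 intervals overlap too. Reads are not independent molecules, so that the intervals cover counting error only. The mean share was 7.98% ± 2.99 among controls and 14.8% ± 2.67 with AA (SD, n = 4 each).

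AA-treated rat 2, which stood apart in the level of both arms, lay within the range of the other AA-treated rats in this share. Without it the mean share of the AA-treated rats was 15.0% ± 3.25 (SD, n = 3). The same balance, given as a fold, placed miR-31 at 12.8 ± 4.51 times miR-31* among controls and at 5.94 ± 1.34 times with AA (SD, n = 4 each). On the log2 scale, the ratio of miR-31* to miR-31 was 1.05 higher with AA, with a mean of the ratio of -3.60 ± 0.56 among controls and -2.54 ± 0.31 with AA. This difference was not tested, since it comes from the contrast that chose the hairpin.

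**Figure D3:**
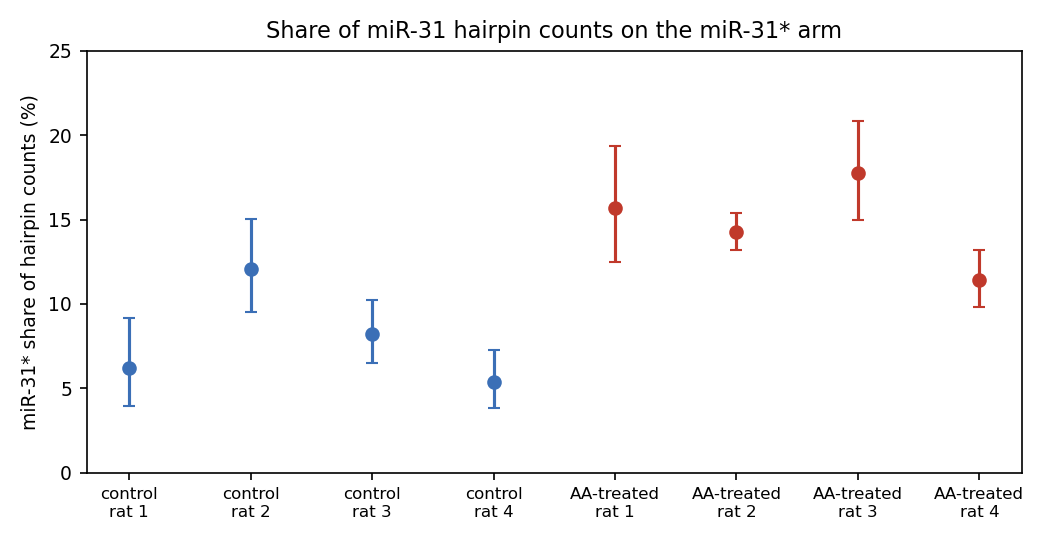
Share of the reads of the miR-31 hairpin that fell on miR-31*, in percent, for each of the 8 rats, with 95% exact binomial intervals as bars. The control rats lie between 5.39% and 12.1% and the AA-treated rats between 11.4% and 17.8%.

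Set among other hairpins, the difference in the arm ratio was one of the larger ones. Both arms were listed for 205 hairpins, and 112 of them had a mean of at least 10 counts in the rarer arm and no rat at 0 in either arm. The difference in the log2 ratio of the rarer to the more abundant arm ran from -3.96 to 1.53 over these 112 hairpins, with a median of 0.13 and quartiles of -0.17 and 0.41. It was above 0 for 69 hairpins and below 0 for 43. In either direction, 7 hairpins, miR-31 among them, were at least as far from 0 as miR-31. miR-31 ranked 3 from the top, after miR-191 (1.53) and miR-152 (1.34) and before miR-125b (0.96), miR-107 (0.88) and miR-16 (0.87). In these 5 hairpins the rarer arm was a far smaller part of the hairpin, with median shares of 0.0176% to 0.575% among controls against 7.22% for miR-31*. The miR-421 hairpin, at rank 8 with a difference of 0.82, was more like miR-31 in this. Its rarer arm, with a mean of 12.0 counts, had median shares of 6.26% among controls and 13.4% with AA. For 14 of the 112 hairpins (12.5%) the ratios of the groups did not overlap, and the miR-31 hairpin was not one of them.

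**Figure D4:**
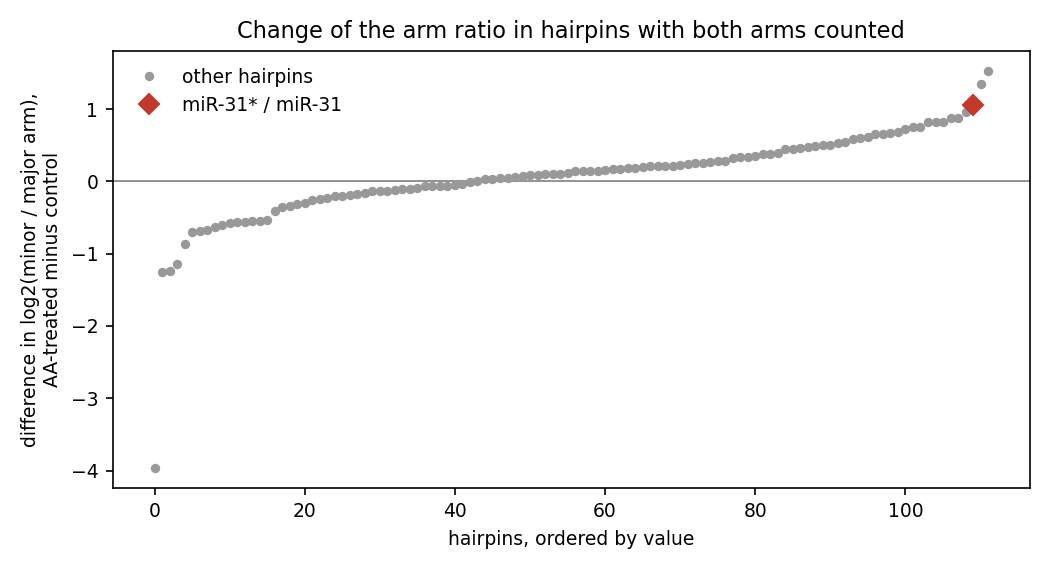
Difference between AA-treated and control rats in the log2 ratio of the rarer to the more abundant arm (vertical axis), for 112 hairpins in order of that value (horizontal axis). The diamond marks the miR-31 hairpin at 1.05, ranked 3 from the top, and the other hairpins are grey.

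The levels of the arms went together mainly through AA-treated rat 2. Over the 8 rats, log2 normalized counts of miR-31 and miR-31* had a Pearson r of 0.83 and a Spearman rho of 0.55. Without AA-treated rat 2 the r was 0.51, and without the 2 rats farthest from the median of miR-31, AA-treated rat 2 and control rat 1, it was -0.01. Leaving out the extreme rats narrows the range of miR-31, which by itself lowers an r over so few rats. Among the control rats, for example, miR-31 was highest in rat 4 and miR-31* in rat 2. These correlations and those below are descriptions without a p, over points that share their library and its size factor.

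Of 369 other miRNAs with a mean of at least 10 normalized counts, those most like miR-31 across the 8 rats were miR-31* itself, miR-500 (r = 0.82), miR-205 (0.77), miR-24-1* (0.72) and miR-331 (0.72). Without AA-treated rat 2 the r with miR-31 was 0.74 for miR-24-1* and 0.86 for miR-331, but 0.50 for miR-500 and 0.20 for miR-205. Those most like miR-31* were miR-141* (0.93), miR-205 (0.93), miR-505 (0.91), miR-500 (0.89) and miR-31. Without AA-treated rat 2 the r with miR-31* was 0.96 for miR-141*, 0.81 for miR-205, 0.91 for miR-505 and 0.71 for miR-500. All of these r values pool both groups, so that a difference between the groups can add to them. For deviations from the group means the r with miR-31* was 0.87 for miR-141*, 0.91 for miR-205, 0.83 for miR-505 and 0.80 for miR-500. Those deviations include AA-treated rat 2.

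miR-141* is the rarer arm of miR-141, a member of the miR-200 group of epithelial miRNAs. It had 26.0, 45.0, 44.6 and 34.2 normalized counts in control rats 1 to 4 and 42.6, 69.5, 62.1 and 50.5 in AA-treated rats 1 to 4. The order of the control rats was the same as for miR-31*, with rat 1 lowest and rat 2 highest. It did not pass the thresholds for a called difference, which were an adjusted p under 0.05 over all 620 miRNAs and a ratio of means over 1.5 (log2 fold change 0.58, standard error 0.30, adjusted p = 0.273 by edgeR). Other members of the miR-200 group went both ways, and none was called. Their log2 fold changes were 0.08 for miR-141, 0.37 for miR-200c and 1.46 for the scarce miR-200c*. They were -0.39 for miR-200a, -0.54 for miR-200a*, -0.32 for miR-200b, -0.50 for miR-200b* and -0.11 for miR-429. miR-505 had 372 to 487 normalized counts among controls and 559 to 681 with AA, with no overlap, and was not called either (log2 fold change 0.48, standard error 0.21, adjusted p = 0.175 by edgeR).

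miR-205, a miRNA of the basal cells of stratified epithelia, stood out in the same rat as both arms of miR-31. Its sequence is given to show that its seed, in capitals, differs from those of the arms.
miR-205: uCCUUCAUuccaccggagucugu

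miR-205 had 136, 805, 193 and 191 normalized counts in control rats 1 to 4 and 348, 6373, 618 and 594 in AA-treated rats 1 to 4. AA-treated rat 2 was therefore far above the others, and control rat 2, which had the most miR-31* and the largest miR-31* share among the control rats, was the highest control rat. miR-205 was not called between the groups (log2 fold change 2.58, standard error 0.85, adjusted p = 0.0801 by edgeR). Of the other 3 rows of the stratified epithelium and urothelium list, none was highest of all 8 rats in AA-treated rat 2, but miR-203 and miR-203* were highest there among the AA-treated rats. miR-203, an epidermal miRNA and the most abundant row of the list, reached 16282 normalized counts in that rat, 8555 to 14960 in the remaining rats given AA and 14785 to 26189 among controls. miR-203* had 21.1 in that rat, 10.1 to 15.8 in the remaining ones and 19.5 to 21.97 among controls, and miR-184 had 531, 689 to 1147 and 639 to 1745. The summed level of the 4 rows was 23208 in AA-treated rat 2, 10075 to 16464 in the remaining rats given AA and 16740 to 27505 among controls. The part of such cells in the level of miR-31 was not tested.

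**Figure D5:**
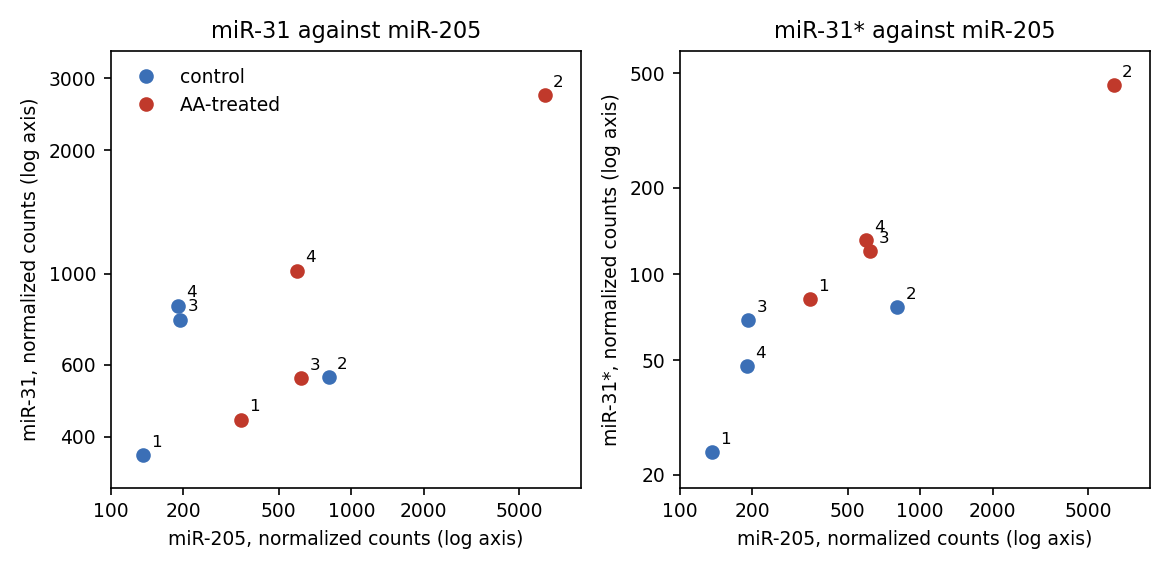
Normalized counts of miR-31 (left) and miR-31* (right) against those of miR-205, all on log axes, with 1 point per rat labelled by its number. AA-treated rat 2 lies apart at 6373 normalized counts of miR-205, and among the other 7 rats miR-205 goes with miR-31* (r = 0.81) more closely than with miR-31 (r = 0.20).

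AA-treated rat 2 also had the most miR-122, the miRNA of hepatocytes, with 7519 normalized counts against 10.1 to 42.4 in the remaining rats given AA and 60.4 to 735 among controls. Control rat 1, the highest control rat in miR-122, was the lowest of all 8 rats in both arms of miR-31. AA-treated rat 2 was the highest rat for 38 (10.3%) of the 370 miRNAs with a mean of at least 10 counts, among them both arms. The part of liver RNA in the level of miR-31 was not tested.

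Markers of the tissue and of other cell types that a piece of kidney can hold were counted in the same edgeR fit, which called 5.81% of all miRNAs higher (36 of 620), 3.23% lower (20 of 620) and 9.03% in either direction. With total counts the 36 higher and 20 lower calls became 58 and 11, and the median log2 fold change over the whole table was 0.31 in place of 0.05. Of 17 rows of tubule and epithelium miRNAs, against 3.23% of all miRNAs, 2 were called lower, miR-204 (log2 fold change -0.86, adjusted p = 0.0357 by edgeR) and miR-194* (-0.88, adjusted p = 0.0386), and 0 higher. The list's median log2 fold change was -0.43 against 0.05 for all miRNAs, and 0 of its rows were called with TMM factors or total counts, 3 with DESeq2 and 3 with limma-voom. Over all 620 miRNAs, DESeq2 called 74 and limma-voom 60 in either direction. Its most abundant member, miR-30a of the nephron, had 1275650 to 1891560 normalized counts with AA and 1721590 to 1969120 among controls. Of 12 rows of leukocyte miRNAs, against 5.81% of all miRNAs, 3 were called higher, miR-142-3p (log2 fold change 1.42, adjusted p = 7.92e-04 by edgeR), miR-146b (2.23, adjusted p = 2.85e-04) and miR-223 (0.96, adjusted p = 0.0231). The median of the list was 0.52, and its summed level was 61608 to 112007 with AA and 37804 to 49915 among controls, with 82265 in AA-treated rat 2. The leukocyte sum was therefore higher in every AA-treated rat than in every control rat, and AA-treated rat 2 did not have the highest sum. Of the 9 rows not called, miR-146a (-0.14) and miR-342-3p (-0.30) had log2 fold changes below 0 and the others above 0. The part of leukocytes in the level of either arm was not tested.

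No row was called among 8 rows of fibroblast and smooth muscle miRNAs (median 0.22, led by miR-143), 4 of red cells (-0.71, led by miR-451), 2 of endothelium (-0.42, led by miR-126), 2 of liver (2.85, led by miR-122) and the 4 of stratified epithelium and urothelium (-0.42). At an unadjusted p under 0.05 in edgeR these lists had 3, 2, 0, 0 and 2 rows, against 148 of all 620 miRNAs. DESeq2 called 1 row of the first list and 0 of the others, against 74 of all miRNAs. limma-voom called 0 in each, against 60 of all miRNAs. Their summed levels were 1973970 to 2677430 with AA and 2559920 to 3550820 among controls for fibroblasts and smooth muscle, 3402 to 11441 and 11079 to 16985 for red cells, and 88876 to 137262 and 124106 to 164003 for endothelium. AA-treated rat 2 had the lowest endothelial and the highest red cell sum of the AA-treated rats. None of the rows in these lists was at 0 in every rat, and the medians leave out the rows with at most 3 counts in each rat.

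miRNAs that are known to rise in injured kidney formed the list nearest to the setting of this study. Of its 16 rows, 8 were called higher and 0 lower, against 5.81% and 3.23% of all miRNAs, with a median log2 fold change of 1.24 against 0.05. Of the 8, miR-146b and miR-223 are also among the 3 leukocyte miRNAs called higher. The others included miR-34a, which p53 induces (log2 fold change 4.42, adjusted p = 1.28e-07 by edgeR), its arm miR-34a* (3.93, adjusted p = 2.14e-04), miR-21 (1.94, adjusted p = 2.76e-04) and miR-132 (1.95, adjusted p = 2.76e-04). The list was chosen with earlier results of these data known, so that its count is not independent evidence of its direction. AA-treated rat 2 was not the highest rat in miR-34a, miR-21 or miR-132, with 7419, 1453810 and 443 normalized counts against highest values of 12058, 2445710 and 598. In miR-34a* it was the highest, as in the miR-31 arms, with 43.7 normalized counts against 31.8 to 38.2 in the remaining rats given AA. Without AA-treated rat 2, 9 rows of this list were called higher.

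Genes near Mir31 were taken in their order on chromosome 5 from the RefSeq gene table. On one side the next protein-coding gene is the interferon gene Ifne, and on the other side C5h9orf85, Mtap and Cdkn2a follow. The nearest miRNA genes with rows in the count table were Mir455 and Mir32 on one side and Mir872 and Mir101a on the other, with 8 rows for both arms of each. They were taken by order and without a limit of distance, so that they may lie far from Mir31. Mir3554 and Mir3084c, which lie nearer than Mir455, have no rows. edgeR called 0 of the 8, a count too small to set apart from the 9.03% called of all miRNAs. At an unadjusted p under 0.05 in edgeR there was 1 row, against 148 of all 620 miRNAs. DESeq2 called 1 row and limma-voom 0, against 74 and 60 of all miRNAs. The log2 fold changes were -0.69 to 0.67. The highest was miR-872*, with 597 to 641 normalized counts among controls and 805 to 1340 with AA (adjusted p = 0.0714 by edgeR). miR-872* did not share the high value of AA-treated rat 2, where it was lowest among the AA-treated rats.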

How the data were processed

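The authors deposited raw counts of reads for each mature miRNA in each rat, neither normalized nor pooled. The authors masked adaptors, removed contaminated reads and assigned reads to rat miRNAs of miRBase release 16 with the miRanalyzer webserver at its default parameters. The submitters' processing notes name CASAVA 1.7. How reads matching more than 1 miRNA were counted, and a genome build for these counts, are not given in the sources used here. Groups and rat numbers come from the sample titles.

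From these counts, size factors by the median of ratios were computed and all 620 miRNAs were fitted with edgeR 4.0.16 in R 4.3.3 (quasi-likelihood test, no covariate, no filter, Benjamini-Hochberg adjustment). Standard errors are the log2 fold change divided by the root of its F statistic. The alternatives were TMM, total counts, DESeq2 1.42.0, limma-voom (limma 3.58.1), robust moderation, a mean of at least 10 counts, a replicate block, and fits without single rats or without the pair numbered 4. The test was also tried on simulated data. Likeness used log2 of normalized counts plus 1. Exact tests and intervals used scipy 1.17.1 and Python 3.11.15, and the hairpin was folded with RNAfold of ViennaRNA 2.7.2. Names and sequences came from RefSeq tables on GRCr8, matched by name.

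The hairpin, lists and rules were chosen with earlier results of these data known. The rules named the arms, the nearest miRNA genes, the 5 miRNAs most like each arm, the nearest hairpins by arm ratio, and, of each list, up to 4 called rows and its most abundant row. List rows were matched as both arms of each name. The other rows given for the stratified epithelium list, and the miR-421 hairpin, were chosen after their values were seen. Libraries of 1 group differed by a chi-square of at least 394 per degree of freedom, so that none repeated another.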

Additional observations from a re-analysis of the deposited data

Results flagged for a closer look

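miR-31* in the AA-treated rats was set apart by 1 rat. The gap between AA-treated rat 2, at 455 normalized counts, and the next rat, at 131, was 0.868 of the whole range of the 4 rats, over the 95% critical value of Dixon's test for 4 values. For miR-31 in the same rats the gap was 0.748 of the range and did not pass that value. The share of the hairpin's reads on miR-31* gave gaps of 0.45 in the AA-treated and 0.578 in the control rats, both under it. miR-205 passed it in both groups, with 0.955 of the range in the AA-treated rats, where rat 2 had 6373 normalized counts, and 0.914 in the control rats, where rat 2 had 805. Chance alone passes this value in about 1 of 20 groups of normally distributed values, and other miRNAs were looked at too. The gaps were taken on normalized counts and not on log values, and whether the counts are so distributed was not tested. Gaps on log values were not compared with the critical value, so that the gaps over it hold for normalized counts only. The values of both arms chose the hairpin, so that their gaps are a description and no test.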

How the results depend on the processing

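The log2 fold change of miR-31 lay between 0.09 without AA-treated rat 2 and 1.25 with total counts over 16 other settings. That of miR-31* was 1.66 with limma-voom, 1.86 with robust moderation, 1.86 with a mean of at least 10 counts and 1.97 without both rats numbered 4, and between 1.03 and 2.11 with each rat left out. Since these values chose the hairpin, the thresholds of the fit are no test of them. miR-31 was under the thresholds in every setting used here. miR-31* passed them with all 8 rats in edgeR. It was under them in the 4 settings just named and without AA-treated rat 2 or control rat 1, 3 or 4, and the cause was not tested. The authors, who used DESeq, list rno-miR-31 by name among their differentially expressed miRNAs. Their values for it were not available here. The log2 difference of the arm ratio stayed between 0.88 and 1.30 under its 12 settings, and the log2 ratio of miR-31 to miR-31* between 2.92 and 3.19 with each rat left out. The count of 56 called miRNAs lay between 40 and 74, and with each rat left out between 40 and 62.

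List counts moved as follows. With total counts, the number of called rows was 0 in place of 2 for tubule and epithelium, 1 in place of 0 for stratified epithelium and urothelium, 5 in place of 3 for leukocytes, 11 in place of 8 for kidney injury and 2 in place of 0 for fibroblasts and smooth muscle, and with TMM it was 0 for tubule and epithelium. Without AA-treated rat 2, a setting added after the data were seen, 1 row of tubule and epithelium and 2 of liver were called lower. The median log2 fold change of the liver list with all 8 rats was 2.85. In the same setting 4 rows of leukocytes and 9 of kidney injury were called higher.

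Animals of equal number shared the number and the weeks given in their descriptions, which the protocol does not give. The correlation of their deviations from the group means over 370 miRNAs was -0.00168, 0.149, 0.125 and 0.338 for numbers 1 to 4, with a mean of 0.153 against -0.0494 for pairs of unequal number. Not every pair was over 0.1 and not every rat correlated best with its own number, so that the rats were not treated as paired. In both groups, however, miR-31* and miR-205 were lowest in rat 1 and highest in rat 2. With the replicate block the log2 fold changes were 0.57 (SE 0.38) for miR-31 and 1.65 (SE 0.29) for miR-31*. The arm ratio difference was 1.05 with the block, and 74 miRNAs were called. Counts of 23 to 73 reads of miR-31* in the control rats limit the precision of its share.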
